A study of Drosophila melanogaster with 4 samples.

Results

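The genes that encode the proteasome were followed through single hybrid embryos of Drosophila melanogaster. They were taken as all gene symbols of the raw count files that begin with Prosalpha or Prosbeta, or with Rpn or Rpt followed by a digit, which gave 47 of 17807 genes. These are 14 subunits of the 20S core particle, 18 subunits of the 19S regulatory particle and 15 paralogs. Virgin females of the inbred line DGRP_737 had been crossed to DGRP_352 males, at 25 °C and 60% humidity, and the embryos were up to 3 h old. Individual embryos and unfertilized eggs were profiled by CEL-Seq2, which counts barcoded 3' ends of polyadenylated RNA as unique molecular identifiers (UMIs), in 4 multiplexed libraries. The groups compared were 8 eggs and 245 embryos that the authors placed along a pseudotime order, divided here into 4 successive stretches of 61, 61, 62 and 61 embryos. A further grouping used the embryo names, which begin with E3 for 72 embryos, with E2 for 99 and with E1 for 74. The labels do not say what the digit means. All embryos come from the same cross, and unfertilized eggs carry no paternal genome. Each value is a share of the RNA of a whole individual, so fewer cells of a type and less RNA per cell cannot be told apart.

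The 26S proteasome degrades proteins that carry ubiquitin chains. Its 20S core is a barrel of alpha rings, which gate the entry, and beta rings, which hold the proteolytic sites. The 19S particle caps the barrel: its base, with the Rpt ATPases and the scaffold subunits Rpn1 and Rpn2, binds and unfolds substrates, and its lid, with the deubiquitinase Rpn11, removes ubiquitin. In early Drosophila embryos the mother supplies most messenger RNAs, which are cleared in steps while the zygotic genome is switched on.

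Of the 47 members, 31 had at least 1000 UMIs over the 253 individuals of the order. These were 6 of 7 alpha subunits, 7 of 7 beta subunits, 10 of 10 base subunits and 8 of 8 lid subunits. The missing alpha subunit, Prosalpha1, had 0 UMIs in all 384 individuals of the barcode table, and so had CG30382, its copy in the neighbourhood. Reads shared by such copies can be lost in counting, so the level of Prosalpha1 is uncertain. The paralogs, several of which are known from testis, were at or near 0. Of the 15 paralogs, 8 had no UMI in any individual, and Rpt3R, a paralog of the base ATPase Rpt3, led the others with 356 UMIs in the order. Prosbeta2R2 followed with 27 UMIs, Rpt6R with 9, and Rpn12R and Rpt4R with 1 each, while Prosbeta4R1 and Rpn13R had UMIs only in individuals outside the order.

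Total UMIs per individual ran from 278007 to 2069031 in the 8 eggs, with a median of 756620. The median was 907317 in the first stretch of embryos and 568460 in the last. Levels are given as CPM, the UMIs of a gene scaled to a common total per individual, spike-ins left out. Follicle cell markers summed to at most 1.35 CPM in any of the 8 eggs, so that RNA of the mother's follicle cells was near 0. The 7 early zygotic markers summed to a median of 12.2 CPM in eggs, 18.9 CPM in the first stretch of embryos, 196 CPM in the second, 1339 CPM in the third and 1557 CPM in the last. The 6 maternal cleared markers had median sums of 2960 CPM in eggs, 3200 CPM in the first stretch, 2245 CPM in the second, 405 CPM in the third and 1108 CPM in the last. In the last stretch stg alone gave 39366 UMIs of this list, while bcd gave 81 and nos 32, so the higher sum there is that of stg.

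Transcripts of the 19S and of the 20S particle parted along the order. In CPM, most 19S transcripts were at their lowest mean in the third stretch of embryos or soon after, and some stood higher again in the last. Most transcripts of the 20S core had their highest CPM in the fifth or sixth of 8 successive bins of embryos and their lowest in the last. Per spike-in UMI the low 19S sum of the third stretch remained, but by stretch neither its higher value in the last nor a clear peak of the core was seen. On this scale the median 19S sum was 5.76 in the first stretch, 5.14 in the second, 1.95 in the third and 1.73 in the last. The median 20S sum was 6.51 in the first, 6.67 in the third and 3.33 in the last. By bin the median 19S sum per spike-in UMI was 2.48 at places 123 to 153 and 1.59 at places 154 to 184. It was then 1.65 at places 185 to 214 and 1.96 at places 215 to 245, with overlapping ranges, so a higher late value was seen by bin. Summed over its 18 genes, the 19S particle ran from 1622 CPM over a median of 2942 to 3274 CPM in eggs. In the first stretch of embryos the 19S sum ran from 1574 CPM over a median of 3136 to 3616 CPM. Medians then were 2678 CPM in the second stretch, 1233 CPM in the third and 1483 CPM in the last. The ranges of the first and the third stretch overlapped, between 1574 and 2698 CPM, and the lowest sum of the first stretch belonged to the embryo at place 1. No embryo of the last 3 bins described below exceeded 1976 CPM.

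Summed over its 13 measured genes, the 20S core ran from 2719 CPM over a median of 3499 to 4053 CPM in eggs. Medians were 3538 CPM in the first stretch, 3669 CPM in the second, 5020.5 CPM in the third and 3131 CPM in the last, where single embryos went as low as 753 CPM. The log2 ratio of the 19S sum to the 20S sum within an individual needs no scaling between individuals. Its median was -0.28 in eggs, -0.16 in the first stretch, -0.40 in the second, -2.03 in the third and -1.29 in the last. In bins of 30 or 31 embryos the ratio was lowest in the sixth bin (places 154 to 184), at a mean of -2.08 ± 0.19 (SD, n = 31), and reached -0.23 ± 0.71 (SD, n = 31) at places 215 to 245. Within each of the 4 libraries the mean ratio was also lowest in the third stretch, between -2.02 and -1.44.

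**Figure D1:**
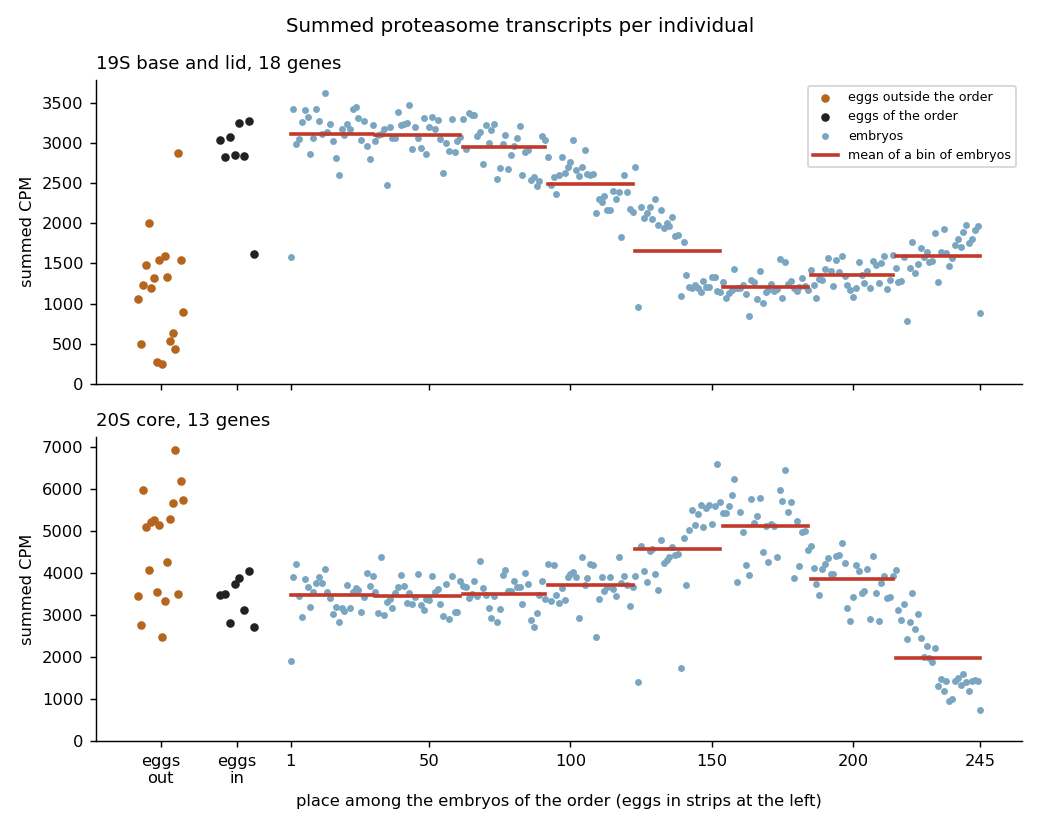
Summed CPM of the 18 genes of the 19S particle (top) and of the 13 measured genes of the 20S core (bottom) in each individual, with eggs in strips at the left, embryos by place in the order and red lines for the mean of each bin of 30 or 31 embryos. The 19S sum drops to a mean of 1209 CPM at places 154 to 184, where the 20S sum is highest at 5125 CPM, and the 20S sum ends at 1993 CPM.

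No count of changed genes along the order carries a p-value, because the authors made the order from the same transcriptomes. Mean CPM of the third stretch was at least 1.5-fold lower than in the first stretch for 15 of 18 19S members, against 39.1% of 7377 genes. It was at least 1.5-fold higher for 1 of 13 core members (Prosbeta7) and for 1 of 18 19S members (Rpn12), against 24.7% of all genes. Most of this difference lay between the second and the third stretch, with 15 of 18 19S members at least 1.5-fold lower in the third than in the second (39.1% of genes) and 0 higher (20.2% of genes). Before that, 2 of 18 19S members, Rpn11 and Rpn7, were already at least 1.5-fold lower in the second stretch than in the first (12.3% of genes), and 0 members of either particle were higher (2.52% of genes). The median log2 ratio of the third to the first stretch was -1.34 for the 19S particle and 0.48 for the core, and -0.14 for all genes. Between the third and the last stretch the core showed the larger differences. Mean CPM of the last stretch was at least 1.5-fold lower than in the third for 10 of 13 core members, against 30.0% of all genes, and for 0 of 18 19S members. It was at least 1.5-fold higher for 5 of 18 19S members, against 26.7% of all genes, a share near that of the background. These 5 were Rpn11, Rpn7, Rpn8, Rpn1 and Rpt5, with log2 ratios of 1.53, 1.50, 1.24, 0.94 and 0.72. Others lay below 0, among them Rpn5 at -0.58, Rpt1 at -0.40 and Rpn13 at -0.22.

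Among the lid genes, Rpn11, the deubiquitinase of the proteasome, averaged 152 CPM in the first bin of embryos, 93.0 CPM in the third, 16.4 CPM in the fifth and 64.6 CPM in the eighth. Rpn7, a structural lid subunit, averaged 172 CPM in the first bin, 15.9 CPM in the fifth and 78.4 CPM in the eighth. Rpn8, the partner of Rpn11, averaged 77.9 CPM in the first bin, 9.06 CPM in the sixth and 34.7 CPM in the eighth. In all 3 genes the SD within a bin was below the distance between its first and lowest bin. In each the mean of the eighth bin lay between those of the lowest and the first. Rpn5, another structural lid subunit, was lower only from the fifth bin on, with 592 CPM in the first bin, 611 CPM in the fourth, 155 CPM in the sixth and 204 CPM in the eighth.

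Among the base genes, Rpt5, an ATPase of the ring, averaged 235 CPM in the first bin, 33.9 CPM in the sixth and 90.5 CPM in the eighth. Rpn13, a ubiquitin receptor, averaged 98.7 CPM in the first bin, 22.2 CPM in the sixth and 33.1 CPM in the eighth. Of the 10 base genes, 8 had their lowest mean at places 154 to 184. The ATPase Rpt4 stood apart from the rest of the base, with its lowest mean of 114 CPM in the first bin and its highest of 181 CPM in the seventh. Of the 8 lid genes, Rpn12 and Rpn6 were likewise not low in the middle bins. Rpn12 averaged 60.8 CPM in the first bin, 97.8 CPM in the sixth and 46.9 CPM in the eighth. The mean of Rpn6 stayed between 174 and 226 CPM in all 8 bins.

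Among the core genes, 12 of 13 had their lowest mean in the eighth bin, the exception being Prosbeta7. Prosbeta7, a structural beta subunit, averaged 254 CPM in the first bin, 485 CPM in the sixth and 270 CPM in the eighth. Prosbeta4, also structural, averaged 685 CPM in the first bin, 1090 CPM in the sixth and 481 CPM in the eighth. Prosalpha4 was already low in the seventh bin, with 340 CPM in the fifth bin, 308 CPM in the sixth, 119 CPM in the seventh and 58.7 CPM in the eighth. Prosalpha3 had no peak in the middle bins: it averaged 110 CPM in the first bin, 114 CPM in the fifth, 80.3 CPM in the sixth and 28.0 CPM in the eighth. The 3 subunits with proteolytic sites followed the other beta subunits, and Prosbeta1, Prosbeta2 and Prosbeta5 had medians of 182, 358 and 421 CPM in the third stretch and of 83.2, 265 and 260 CPM in the last.

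**Figure D2:**
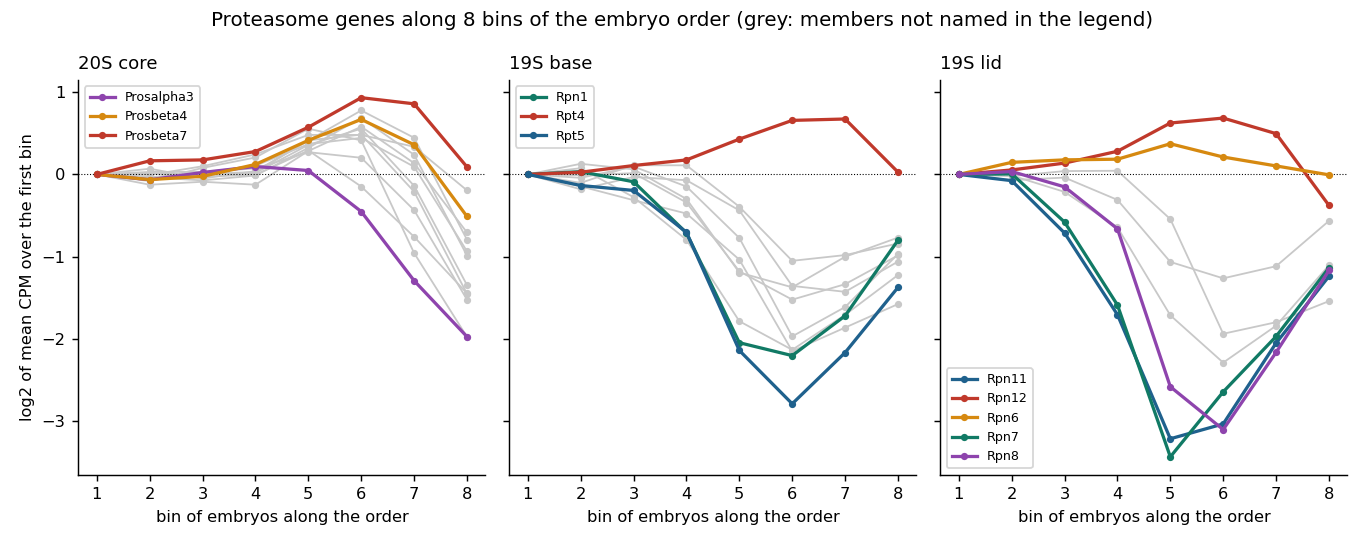
Log2 of the mean CPM of each member in 8 successive bins of 30 or 31 embryos over its mean in the first bin, for the 20S core, the 19S base and the 19S lid, with selected genes in colour. Most base and lid genes reach their lowest mean in the fifth or sixth bin, Rpt1, Rpt4, Rpn12 and Rpn6 do not, and all core genes but Prosbeta7 end below their first bin.

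Over all 245 embryos, the rank correlation of a gene's normalized value with the place in the order gives one number for these curved courses. Here 0 of 32 members with normalized values reached a rho of at least 0.5, which 13.9% of 7170 genes passed. A rho of -0.5 or less was reached by 23 of 32 members, against 52.5% of all genes. These were 7 of 13 core genes, 9 of 10 base genes and 7 of 8 lid genes. The lowest were Prosalpha3 at -0.86, Prosalpha7 at -0.81, Rpn5 at -0.79, Rpn13 at -0.78 and Rpt5 at -0.77. The highest were Rpt3R at 0.22, Prosbeta7 at 0.10, Rpt4 at -0.06, Rpn12 at -0.17 and Prosbeta4 at -0.22. With CPM in place of the normalized values, 39.1% of 7377 genes had a rho of -0.5 or less. The core count was then 2 of 13, and the counts of base and lid genes were 9 and 6. The falling calls thus depend on the scale, most of all in the core. On the CPM scale rho was 0.40 for Prosbeta7, 0.38 for Rpt4, 0.21 for Rpn12 and 0.14 for Prosbeta4, and that of Rpn6 was 0.006, against -0.55 with normalized values.

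The name of an embryo is not a measured value, so E3-named embryos were compared with E1-named embryos in an edgeR quasi-likelihood model of the UMI counts. Library was a factor, and genes were called at a Benjamini-Hochberg adjusted p under 0.05. Of the 74 E1-named embryos, 61 formed the whole first stretch, 5 stood in the second, 1 in the third and 7 in the last. The E1-named group is thus not purely early, and its values include those 7 late embryos. E3-named embryos stood only in the third (32) and the last (40). With 91.0% of 5985 genes called, a call says little about a single gene, and sizes are read against the median gene. Of the 19S genes 15 of 18 were lower in E3-named embryos, against 47.6% of all genes, and 3 were higher, against 43.4%. The split is like that along the order, but the same embryos largely make up those stretches, so the likeness is not independent. At least a 2-fold decrease was called for 10 of 18 19S genes, against 30.3% of all genes, and for 0 of 13 core genes. At least a 2-fold increase was called for 1 of 13 core genes, Prosbeta7, against 21.5% of all genes. Of the core genes 11 were called higher, Prosalpha3 was lower and Prosalpha7 was not called. The direction of the core rests on the scaling: with library sizes set to the spike-in UMIs, 0 core genes were higher and 8 lower, and the split of all genes moved to 579 higher against 4288 lower.

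That scaling moved the median gene to a log2 fold change of -1.24, and edgeR with RLE factors moved it to -0.42, against -0.09 with TMM factors, used above. With TMM factors the median core gene lay 0.75 above the median gene on the log2 scale, and the median 19S gene lay 1.09 below it. Of all genes, 68.6% lay below the median core gene and 27.0% below the median 19S gene, so many genes lay further out than either. Of the core genes 12 of 13 lay above the median gene, with Prosalpha3 below, and 15 of 18 19S genes lay below it, with Rpt4, Rpn12 and Rpn6 above. Subtracting the median gene removes most of what a scaling changes, so these positions describe the genes relative to each other and say nothing of the direction in absolute terms.

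Rpn8 ran from 0 over a median of 12.5 to 44.0 CPM in E3-named embryos, and from 15.4 over 76.6 to 123 CPM in E1-named embryos. Its log2 fold change was -1.88 ± 0.14 (SE; adjusted p 4.28e-31, edgeR), the lowest of the members. Rpt5 ran from 11.8 over 48.1 to 130 CPM in E3-named embryos, and from 65.6 over 217 to 318 CPM in E1-named embryos, with a log2 fold change of -1.68 ± 0.11. The ranges of both genes overlapped, and each median of one group lay outside the range of the other. Rpn11 had a median of 31.3 CPM in E3-named embryos and of 146 CPM in E1-named embryos, with a log2 fold change of -1.66 ± 0.14. Rpn7 had medians of 37.5 CPM in E3-named and 172 CPM in E1-named embryos, with a log2 fold change of -1.61 ± 0.15. Rpn3, a structural lid subunit, had medians of 58.8 CPM in E3-named and 237 CPM in E1-named embryos, with a log2 fold change of -1.40 ± 0.09. All 5 genes were called lower within each of the 4 libraries alone.

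Prosbeta7 was the highest member, with 67.4 over a median of 443 to 689 CPM in E3-named embryos, and 108 over 271 to 409 CPM in E1-named embryos. Its log2 fold change was 1.14 ± 0.08 (SE; adjusted p 1.96e-33, edgeR), and its ranges overlapped widely. Rpt4 had medians of 169 CPM in E3-named and 116 CPM in E1-named embryos, with a log2 fold change of 0.99 ± 0.07. Rpn12 had medians of 89.5 CPM in E3-named and 61.4 CPM in E1-named embryos, with a log2 fold change of 0.94 ± 0.07. Prosbeta4 and Prosalpha6, a structural alpha subunit, had log2 fold changes of 0.93 ± 0.09 and 0.92 ± 0.09. Rpn6 had a smaller one, 0.45 ± 0.05, with medians of 191 CPM in E3-named and 183 CPM in E1-named embryos. With spike-in scaling none of these 6 genes had a log2 fold change above 0, and that of Prosbeta7 was practically 0. Prosalpha3 was lower, with medians of 49.8 CPM in E3-named and 105 CPM in E1-named embryos and a log2 fold change of -0.33 ± 0.09, and Prosalpha7 had 0.09 ± 0.08 (adjusted p 0.307, edgeR).

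Other genes of the ubiquitin-proteasome pathway split in the same comparison, with 10 of 23 higher and 12 of 23 lower in E3-named embryos, shares near those of all genes (43.4% and 47.6%). With spike-in library sizes 0 of 23 were higher and 17 lower, so the higher calls named here rest on TMM factors. Lower were Sem1, a small lid subunit outside the naming rule, at a log2 fold change of -2.21 ± 0.16, the polyubiquitin gene Ubi-p63E at -2.99 ± 0.13, and the ubiquitin-activating enzyme Uba1 at -1.28 ± 0.08. Also lower was p47, a cofactor of the ATPase TER94, at -1.48 ± 0.16, while TER94 itself had -0.18 ± 0.05. Higher were Pomp, the assembly chaperone of the core, at 0.89 ± 0.08, the core activator REG at 0.89 ± 0.06, and RpL40, a ubiquitin fused to a ribosomal protein, at 0.93 ± 0.06. The gene of the transcription factor cnc, the fly Nrf protein, was lower at -0.88 ± 0.07, and that of its partner maf-S was higher at 1.24 ± 0.11. PI31, a proteasome-binding regulator, was not called, at -0.11 ± 0.07.

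Few members were called between the eggs of the order and the first stretch of embryos. The order that holds these eggs and sets that stretch was made from the same transcriptomes. Likeness of the groups is thus partly fixed by how they were chosen, and the p-values do not allow for it. Of 31 members tested by edgeR, 0 were higher and 2 were lower in the 8 eggs, where 2.81% of 6004 genes were called, 0.899% higher and 1.92% lower. At an unadjusted p under 0.05 there were 0 of 13 core genes and 6 of 18 19S genes, against 1017 of 6004 genes, and of the 6, Rpn9 was higher in eggs and the others lower. Rpn10, a ubiquitin receptor between base and lid, ran from 25.2 over a median of 111 to 135 CPM in eggs, and from 88.1 over 137 to 174 CPM in the first stretch. Its log2 fold change was -0.36 ± 0.09 (SE; adjusted p 0.012, edgeR). Rpn7 ran from 3.60 over a median of 128 to 179 CPM in eggs, and from 17.0 over 178 to 246 CPM in the first stretch, with a log2 fold change of -0.50 ± 0.13 (adjusted p 0.0193, edgeR). The ranges overlapped in both. Rpn7 was no longer called without library 1 (adjusted p 0.217), without library 3 (0.0509) or without library 4 (0.228), all by edgeR, and Rpn10 without library 1 (0.15) or library 4 (0.215). With spike-in library sizes both lay above 0, at 0.08 for Rpn7 and 0.27 for Rpn10 on the log2 scale. Both calls held without the egg latest in the order, and neither held with the 6 eggs within the places of the first stretch or against the first 30 embryos alone.

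The members next in size were not called: Rpn11 at -0.26 ± 0.09 (adjusted p 0.0699, edgeR), Rpn1 at -0.21 ± 0.09 and Rpn8 at -0.19 ± 0.11. The highest were Rpn9, a lid subunit, at 0.22 ± 0.08 (adjusted p 0.104, edgeR), Rpt3 at 0.17 ± 0.10, Prosalpha4 at 0.13 ± 0.09, Rpt6 at 0.13 ± 0.10 and Prosbeta6 at 0.13 ± 0.11. Of 23 pathway genes, 0 were called in this comparison, with the nearest, Uch-L5, at an adjusted p of 0.0606 by edgeR.

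The barcode table names 26 more eggs that stand outside the order, of which 18 held at least 163287 UMIs, the depth of the shallowest individual in it. Whether these eggs were older, or why they were left out, is not given in the sources used here. Their 19S transcripts were lower and their 20S transcripts higher than in the first stretch of embryos, and the medians of both sums lay close to those of the third stretch. Their 19S sum ran from 250 over a median of 1215 to 2872 CPM, and their 20S sum from 2485 over a median of 5125 to 6937 CPM. The log2 ratio of 19S to 20S had a median of -2.07, with a lowest value of -4.01 and a highest of -0.29. By name its median was -2.28 in 3 U1-named eggs, -1.75 in 7 U2-named eggs and -2.58 in 8 U3-named eggs. Their early zygotic markers summed to a median of 16.3 CPM and at most 88.7 CPM, below the lowest embryo of the third stretch, which had 456 CPM. Their maternal cleared markers had a median sum of 1356 CPM and their germ cell markers of 219 CPM, against 3200 and 1344 CPM in the first stretch of embryos.

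By edgeR with the same settings, in a comparison added after seeing the data, 15 of 18 19S genes were lower in these 18 eggs than in the first stretch of embryos, against 44.1% of 5850 genes. Rpt4 and Rpn12 were higher and Rpn6 was not called, at a log2 fold change of -0.17 ± 0.11. Of the core genes 11 of 13 were higher, against 43.9% of all genes, a direction that again rests on the scaling. With spike-in library sizes 0 core genes were called higher or lower, and 15 19S genes were called lower. That scaling moved the median gene to a log2 fold change of -0.55, against 0.03 with TMM factors. The lower calls are thus read against the median gene, and 15 of 18 19S genes lay below it. Rpn11 ran from 0 over a median of 1.36 to 92.5 CPM in these eggs, and from 101 over 152 to 180 CPM in the first stretch, without overlap, and its log2 fold change was -4.43 ± 0.22 (SE; adjusted p 9.23e-32, edgeR). Rpn7 had a median of 2.93 CPM in these eggs and of 178 CPM in the first stretch, with a log2 fold change of -4.28 ± 0.26. Rpt5 had medians of 15.4 CPM in these eggs and 224 CPM in the first stretch, with a log2 fold change of -3.08 ± 0.18. This comparison shares the first stretch of embryos with the E1-named group, so the likeness of the 2 lists is not independent.

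Paternal and maternal values, which per the labels the authors derived from known variants, covered 9 members: Prosalpha5, Prosbeta2, Prosbeta4, Prosbeta6, Rpt4, Rpt5, Rpn13, Rpn3 and Rpn9. In the last stretch of embryos the paternal value was below the maternal one in 9 of 9 members, against 70.0% of 2062 genes, and above it in 0 of 9, against 9.02%, by a sign-flip permutation test with 100000 resamples. Adjusted p was 5.2e-05 for Rpt4 and 1.83e-05, the smallest reached, for the other 8. RNA laid down by the mother also counts as maternal, so a low paternal share is no measure of the activity of the paternal allele. The paternal value of the last stretch exceeded that of the eggs for 7 of 9 members by a permutation test, against 63.4% of genes, and lay below it for 0 of 9, against 0.776%. With library 1 left out, which leaves 5 eggs, the count was 3 of 9, against 660 of 2062 genes, and with library 4 left out, also 5 eggs, it was 5 of 9, against 786 of 2051 genes.

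Shares of the paternal value in the summed allele values had a median of 33.1% over all genes in the last stretch. For the members they were 34.6% for Rpn9, 28.9% for Rpn13, 28.5% for Rpn3 and 27.6% for Rpt5, then 19.6% for Prosbeta2, 18.3% for Rpt4, 15.1% for Prosbeta4, 11.0% for Prosbeta6 and 5.66% for Prosalpha5. Within single libraries the 4 autosomal 19S genes ran from 23.1% to 38.9% and the 4 core genes from 3.97% to 21.3%, without overlap. Rpt4, also of the 19S particle, ran from 8.84% to 26.2% and overlapped both. The difference between the 2 particles was not tested, and the allele values of Prosbeta4, Prosbeta6 and Prosalpha5, 3 of the 4 core genes, changed against their total along the order, as given below. The gene Rpt4 lies on the X chromosome, and sons receive their X from the mother only.

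Rpn13 had paternal values of 1 over a median of 17 to 62 in the last stretch, against 0 to 1 in the 8 eggs, and maternal values averaged 51.6 in the last stretch, against 197 in eggs. The gain in mean paternal value over eggs was 20.6 (adjusted p 0.00402, permutation test), and no late embryo was without paternal signal. Rpn3 had paternal values of 0 over a median of 13 to 66 in the last stretch, against 0 to 1 in eggs, and a gain of 16.0 (adjusted p 0.0145, permutation test). Its maternal values averaged 40.7 in the last stretch and 143 in eggs. Rpn9 had paternal values of 0 over a median of 4 to 13 in the last stretch and 0 in each egg, with a gain of 4.67 (adjusted p 0.00531, permutation test). Rpt5 had 0 over a median of 2 to 9 in the last stretch and 0 in each egg, with a gain of 2.34 (adjusted p 0.013, permutation test). Both parental values of these 4 genes were higher at the end of the order. In the second part of the third stretch and in the second part of the last, mean maternal values of Rpn3 were 24.8 and 50.8, those of Rpn13 were 43.9 and 58.2, those of Rpn9 were 5.23 and 11.8, and those of Rpt5 were 2.71 and 7.45.

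Among core genes with allele values, those of Prosbeta4, Prosbeta6 and Prosalpha5 changed against their total along the order, as given below. Their early values of 0 therefore do not date an onset. Prosbeta2 had a paternal value above 0 in 30 of 31 embryos of the second part of the third stretch, at a mean of 8.94. It was above 0 in all 61 embryos of the last stretch, from 1 over a median of 17 to 75, against 0 to 1 in eggs (gain 20.8, adjusted p 0.00531, permutation test). Prosbeta6 had no paternal signal in the first 3 stretches and 0 over a median of 6 to 23 in the last (gain 6.77, adjusted p 0.0124, permutation test). Prosbeta4 had none in the first 3 stretches and was above 0 in 30 of 61 embryos of the last, up to 110 (gain 26.7, adjusted p 0.0438, permutation test). Prosalpha5 was above 0 in 19 of 61 late embryos, all in the second part of the last stretch, and its gain of 2.62 missed the threshold (adjusted p 0.187, permutation test). Rpt4 was above 0 in 15 of 61 late embryos, with a gain of 1.77 (adjusted p 0.273, permutation test). Every one of these 5 genes had 0 paternal signal in each egg except Prosbeta2, which had 1 in 3 eggs.

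In 4 of these genes the allele values did not keep a fixed relation to the total. The summed allele value of Prosbeta4 was 0.416 of its normalized value in the last stretch and 0.0835 of it in the first, and its maternal value averaged 150 in the last stretch, against 45.8 in the first, while its CPM averaged 677 in the last and 670 in the first. For Rpt4 the quotient was 0.105 in the last stretch and 0.000175 in the first, so that its total level was not seen by the allele values of early embryos. For Prosbeta6 it was 0.607 in the last stretch and 0.282 in the first, and for Prosalpha5 it was 0.499 in the last and 0.251 in the first. The log2 change of this quotient was taken with 0.01 added to the quotient of each stretch. Over 1987 genes it had a median of 0.21, with 5th and 95th percentiles of -0.44 and 2.61. It was 2.19 for Prosbeta4, 3.50 for Rpt4, 1.08 for Prosbeta6 and 0.96 for Prosalpha5, so of these only Rpt4 lay beyond those percentiles. The early quotient of Rpt4 lies far below 0.01, so its 3.50 depends mostly on the added value. For the other 5 members the log2 change lay between -0.22 and 0.35. The quotient of Rpn13, 1 of these, was 3.43 in the last stretch and 2.81 in the first, so the quotient is no share of the total. Whether the same variants were counted in early and late embryos is not given in the sources used here, and late shares of these 4 genes cannot be set against their early ones. Depth moved with the paternal values, as a description. Across the 61 late embryos the rank correlation with total UMIs was 0.77 for Prosbeta2, 0.74 for Rpn13, 0.72 for Rpn9, 0.67 for Rpn3 and 0.05 for Rpt4. In the 40 late embryos above 500000 UMIs the median share over all genes was 39.0%, against 33.1% in all 61. Rpn9 there had 40.4%, Rpn13 36.3%, Prosbeta2 24.7% and Prosalpha5 7.35%, and the paternal value was below the maternal one in 9 of 9 members. The part of depth in the gains over eggs was not tested.

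**Figure D3:**
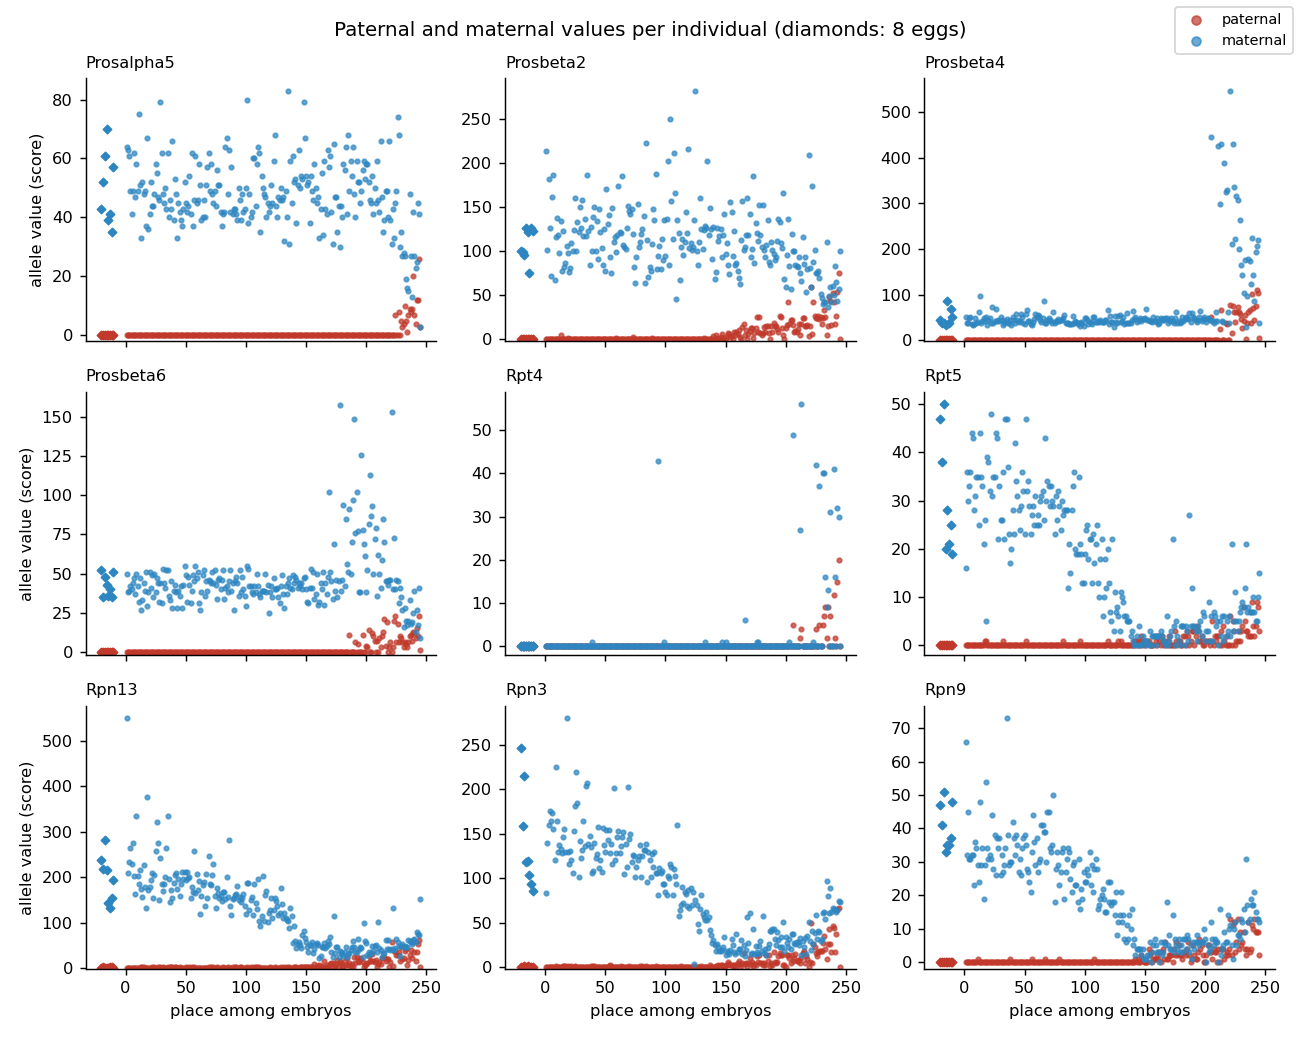
Paternal (red) and maternal (blue) values of the 9 members in the allele table, in each embryo by its place in the order and in the 8 eggs (diamonds, left), in the authors' normalized score. Paternal values stand above their early level in the third stretch for Prosbeta2, Rpt5, Rpn13, Rpn3 and Rpn9 and in the last stretch for the other 4. Maternal values of single embryos of the last stretch lie far above those of the first for Prosbeta4, Prosbeta6 and Rpt4. High single values also occur in the third stretch for Prosbeta6 (up to 158) and in the second for Rpt4 (up to 43).

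In the BDGP6.54 annotation the 18 19S genes lie on 5 chromosome arms, 3 of them on X, and the 13 measured core genes also on 5 arms, 1 of them on X. The longest annotated 3' untranslated region of a gene had a median of 111 bases, from 60 to 254, in the 15 19S genes that were lower in E3-named embryos. It had a median of 149 bases, from 128 to 320, in Rpt4, Rpn12 and Rpn6, and of 109 bases, from 66 to 278, in the core, so that the ranges overlapped. A gene on the opposite strand overlaps 8 of 18 19S genes and 6 of 13 core genes, and Rpt1 overlaps a gene on its own strand. Whether the counting used strand is not stated in the labels, so values of these genes may hold reads of their neighbours.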

How the data were processed

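The authors deposited UMI counts per gene and well barcode for 4 libraries, a barcode table, and 2 series tables in their pseudotime order, 1 of total and 1 of parental values. Per the file headers the raw files are counts. The series tables hold whole numbers normalized by a method that the labels do not state, so the deposited numbers are handled as a score without a known unit. Their 0.1 entries were read as 0. The submitters' processing notes name Trim Galore 0.6.10, SAMtools 1.17, Picard, GATK 4.4.0.0 and R 4.2.1, and the builds dm6 and BDGP6. Individuals were the replicates and libraries technical batches, and p-values measure the spread between individuals. The members, lists and comparisons were chosen with earlier results of these data known. Coordinates come from the BDGP6.54 annotation.

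CPM were computed without the 92 spike-ins, which were 0.0614% of UMIs. Counts were tested with edgeR 4.0.16 (R 4.3.3; TMM, filterByExpr, glmQLFit, library as a factor, Benjamini-Hochberg adjusted p under 0.05), and with DESeq2 1.42.0 as an alternative. Parental values were tested over genes whose summed parental value was above 0 in at least 10 late embryos and averaged 1 or more, by permutation with 100000 resamples, whose smallest p is 1e-05. The scripts of these tests were tested on simulated data. Ratios between stretches of the order used a pseudocount of 0.1 CPM, and changes of the allele quotient one of 0.01. Full statistics are given for the 5 highest and 5 lowest members of each comparison and for those that depart from their complex. Alternatives were other scalings, filters, thresholds, sets of individuals and leaving out each library. No sequence of promoters or proteins was used here. The 96 barcodes of each library that the barcode table assigns to individuals were used, and the other barcodes of the raw files were not.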

Additional observations from a re-analysis of the deposited data

Results flagged for a closer look

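One of the 8 eggs of the order stood far below the others in several members. It was the egg latest in the order, at place 107, from library 4, and the shallowest egg with 278007 UMIs. Its 19S sum was 1622 CPM, against 2825 to 3274 CPM in the other 7 eggs. Among 19S genes it had Rpt5 at 129.5 CPM, against 208 to 237 CPM, Rpt2 at 143.9 CPM, against 348 to 479 CPM, Rpn3 at 68.34 CPM, against 189 to 251 CPM, and Rpn13 at 39.57 CPM, against 81.1 to 112 CPM. It also had Rpn1 at 25.18 CPM, against 84.2 to 114 CPM, Rpt1 at 32.37 CPM, against 71.7 to 107 CPM, and Rpn8 at 14.39 CPM, against 62.8 to 89.1 CPM. Of the core genes Prosbeta6 stood apart too, at 64.75 CPM, against 201 to 244 CPM. Outside the order, 1 of 7 U2-named eggs, from library 3 with 223780 UMIs, had a log2 ratio of 19S to 20S of -3.312, against -2.01 to -1.03 in the other 6. By Dixon's criterion chance marks about 1 in 20 groups, and 10 of the 40 values examined were marked here. Most belong to the same egg, so they are not independent of each other.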

How the results depend on the processing

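With 8 eggs of the order, 2 members were lower than in the first stretch of embryos, and this became 0 at adjusted p under 0.01, with spike-in library sizes, with eggs within the places of the first stretch and with the first 30 embryos alone, and 0 to 3 when 1 library was left out. With all eggs of the barcode table, 15 were lower and 12 higher, with deep eggs from outside the order added 15 and 13, and with those in place of the others 15 and 13, then 16 and 9 under RLE factors and 15 and 0 under spike-in sizes. Under these 5 sets, in the same order, Rpt6 had log2 fold changes of -0.61, -0.61, -1.24, -1.48 and -1.98, Rpt3 had -0.60, -0.63, -1.57, -1.82 and -2.41, and Rpn9 had -0.74, -0.75, -1.85, -2.10 and -2.62. With spike-in sizes and the 8 eggs of the order Rpn7 had 0.075 and Rpn10 0.27. For the eggs outside the order alone, the median gene had -0.22 under RLE factors and -0.55 under spike-in sizes.

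Between E3-named and E1-named embryos, 11 core genes were higher, but 0 with spike-in sizes and 3 in library 4 alone. Core genes called lower numbered 1, but 2 with DESeq2, RLE factors or library 4 alone, 8 with spike-in sizes, 0 with all embryos of the barcode table and in libraries 1, 2 and 3 alone, and 1 to 2 when 1 library was left out. DESeq2 split all genes into 2143 higher and 3357 lower, against 2597 and 2851. The 3 higher 19S genes became 0 with spike-in sizes, where log2 fold changes were -0.25 for Prosalpha6, -0.23 for Prosbeta4, -0.22 for Rpn12, -0.16 for Rpt4, -0.00037 for Prosbeta7, -0.69 for Rpn6 and -1.07 for Prosalpha7. Prosalpha7 had -0.26 with DESeq2, -0.27 with RLE factors, -0.30 to 0.20 when 1 library was left out, the lowest without library 1, and -0.65 in library 4 alone, and Prosalpha3 had 0.037 in library 1 alone.

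Core genes falling along the order were 7, but 2 with CPM and 4 per spike-in UMI. The share of all genes falling was 52.5%, but 39.1% with CPM and 45.9% per spike-in UMI. Members with paternal values above eggs were 7, but 3 to 6 when 1 library was left out. The cause of these changes was not tested. Spike-in medians of 327 UMIs in eggs and 458 to 511 in the stretches limit that scaling, and 8 eggs limit every comparison with them. Library entered every edgeR fit over several libraries as a factor, and individuals within a library are not paired.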
